A study of Rattus norvegicus with 12 samples.

Results

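The core circadian clock genes were followed in lumbar mammary gland of young female Wistar rats. They were 10 of the 26456 gene names on the array, chosen by name with earlier results of these data known. The activators were Arntl, Clock and Npas2, and the repressors Per1, Per2, Per3 and Cry1. The nuclear receptors Nr1d1 and Nr1d2 and the output gene Dbp completed the set. The 10 genes had 17 probes. All 17 passed the filter on dim probes, and the brightest probe of each of the 10 genes was well above background on all 12 arrays. Their mothers had received a diet of 17% protein (normal protein, NP) or 8.8% protein (low protein, LP) during pregnancy. Litters were cut to 6 females at birth and suckled for 21 days, and both groups received standard chow after birth. Each of the 4 groups, NP and LP at day 21 and NP and LP at day 28, had 3 rats with 1 array each. The animal facility kept a light-dark cycle and the rats were killed under isoflurane, but the clock time at which each gland was taken is not given in the sources used here. A difference in sampling time between the rats and an effect of diet on these genes can therefore not be told apart in any LP against NP difference given here. Whether rats of a diet shared a litter is not settled by the labels, so that p-values measure the spread between these samples only. The gland was taken whole after removal of visible lymph nodes, so fewer cells of a type and less RNA per cell cannot be told apart.

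In mammals the clock is a transcriptional loop that runs in nearly every tissue. The proteins of Arntl (now named Bmal1) and Clock, or of Npas2 in place of Clock, bind E-boxes and switch on the Per, Cry, Nr1d1, Nr1d2 and Dbp genes. PER and CRY proteins then inhibit that activator, and the REV-ERB receptors encoded by Nr1d1 and Nr1d2 repress Arntl and Npas2 through response elements that the ROR receptors also bind. In peripheral tissues Arntl and Npas2 transcripts therefore peak at the time of day when Nr1d1 and Dbp transcripts are lowest, and the Per and Cry genes follow at their own phases. In the mammary gland the clock genes are known to cycle and to shift with development.

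Promoter windows of 300 bases, from 250 before to 50 after a transcription start, were given for 9 of the 10 genes in RefSeq (build GRCr8), 11 windows in all, and none was given for Cry1. They were searched on both strands for the E-box CACGTG, the D-box TTATGTAA bound by DBP and its relatives, the half-site AGGTCA bound by REV-ERB and ROR receptors, and the cyclic AMP element TGACGTCA. Only 4 windows held a match, 1 each, and these are shown with the match in capitals because the activator, repressor and receptor genes that hold one are compared later. The second of the Nr1d1 starts (chr10:84229405-84229704, minus strand) held an E-box from position -191, the Per2 window (chr9:99496944-99497243, minus strand) a D-box from position -192, the Arntl window (chr1:176766078-176766377, plus strand) a half-site from position -15 and the Nr1d2 window (chr15:9954784-9955083, plus strand) a half-site from position -187, counted from the start.
Nr1d1: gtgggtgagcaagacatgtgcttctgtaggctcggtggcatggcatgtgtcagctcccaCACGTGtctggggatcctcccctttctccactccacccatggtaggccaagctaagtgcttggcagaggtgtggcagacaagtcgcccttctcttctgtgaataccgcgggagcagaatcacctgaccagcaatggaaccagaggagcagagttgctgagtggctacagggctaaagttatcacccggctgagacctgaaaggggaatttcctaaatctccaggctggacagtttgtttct
Per2: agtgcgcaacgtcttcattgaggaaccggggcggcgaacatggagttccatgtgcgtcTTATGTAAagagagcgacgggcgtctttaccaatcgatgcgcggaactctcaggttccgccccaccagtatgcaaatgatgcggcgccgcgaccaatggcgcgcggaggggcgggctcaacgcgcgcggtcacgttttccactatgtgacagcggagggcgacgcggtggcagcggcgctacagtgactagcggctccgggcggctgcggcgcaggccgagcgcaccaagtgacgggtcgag
Arntl: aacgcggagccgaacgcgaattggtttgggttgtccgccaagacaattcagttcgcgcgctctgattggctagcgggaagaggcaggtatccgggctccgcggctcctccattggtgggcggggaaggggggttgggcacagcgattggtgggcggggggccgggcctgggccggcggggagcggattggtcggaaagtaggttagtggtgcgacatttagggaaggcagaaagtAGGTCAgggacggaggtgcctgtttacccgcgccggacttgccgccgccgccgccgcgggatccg
Nr1d2: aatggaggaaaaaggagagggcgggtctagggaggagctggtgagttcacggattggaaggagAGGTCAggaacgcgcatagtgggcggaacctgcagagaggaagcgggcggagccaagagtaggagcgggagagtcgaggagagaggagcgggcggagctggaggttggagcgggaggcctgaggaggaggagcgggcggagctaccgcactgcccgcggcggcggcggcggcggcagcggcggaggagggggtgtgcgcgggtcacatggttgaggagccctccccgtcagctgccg
Of all 33469 windows in the table, 6.42% held an E-box, 0.893% a D-box, 16.2% a half-site and 1.83% the cyclic AMP element. A match is a description of the letters, and the absence of one says only that these letters are not in this window.

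The 75th percentile of the gene spots of an array, to which all levels are relative on the log2 scale (0 is that percentile), had a signal of 1451 to 2370. Between 74.8% and 79.6% of the gene spots were well above background and none was saturated. The arrays of day 21 were all on 1 slide and those of day 28 all on another, and the effects of age and of slide can therefore not be separated. On each slide the NP arrays and LP replicate 4 were in the first row and LP replicates 6 and 7 in the second. A model term for slide row therefore rests on LP replicate 4 against LP replicates 6 and 7, and is partly tied to diet. LP replicate 6a of day 21 stood apart, with a median correlation of 0.960 to the other arrays against 0.974 to 0.989 for the rest, and the mean of its 6 lymphocyte markers (a log2 level) was -6.19 against -0.68 to 0.66 elsewhere. Muscle markers also varied, from -4.07 to 3.55 in their mean over 6 genes, with the highest values in LP 6a, NP 6a and LP 6f. The markers of luminal epithelium (Krt8, Krt18, Krt19, Epcam, Cdh1, Elf5) had means of 0.10 to 2.26 and those of fibroblasts 3.89 to 4.63.

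At day 28, the output gene, both REV-ERB genes and 1 period gene were lower in the LP glands and 1 activator gene was higher, without passing adjustment. Dbp was 2.3-fold lower, Nr1d1 4.39-fold lower, Nr1d2 1.54-fold lower and Per3 1.37-fold lower in LP, while Npas2 was 1.66-fold higher. With 3 rats against 3 an exact permutation test cannot give a p under 0.1, so unadjusted p values are those of limma and are given as a description of size against spread. These 5 of the 10 genes had an unadjusted p under 0.05 in limma, 4 lower and 1 higher. Of all 23209 tested probes, 8.07% did so, 6.09% lower and 1.98% higher in LP. The 10 genes were chosen with earlier results of these data known, so their count is a description only. None of the 10 genes passed after Benjamini-Hochberg adjustment over all probes, where the lowest adjusted p of any clock gene was 0.581, and none of the other probes passed either. The same 5 genes had LP and NP values that did not overlap, against 16.8% of all probes, 12.4% with LP lower and 4.41% with LP higher. The median difference over the 10 genes was -0.24 against -0.05 over all tested probes.

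**Figure D1:**
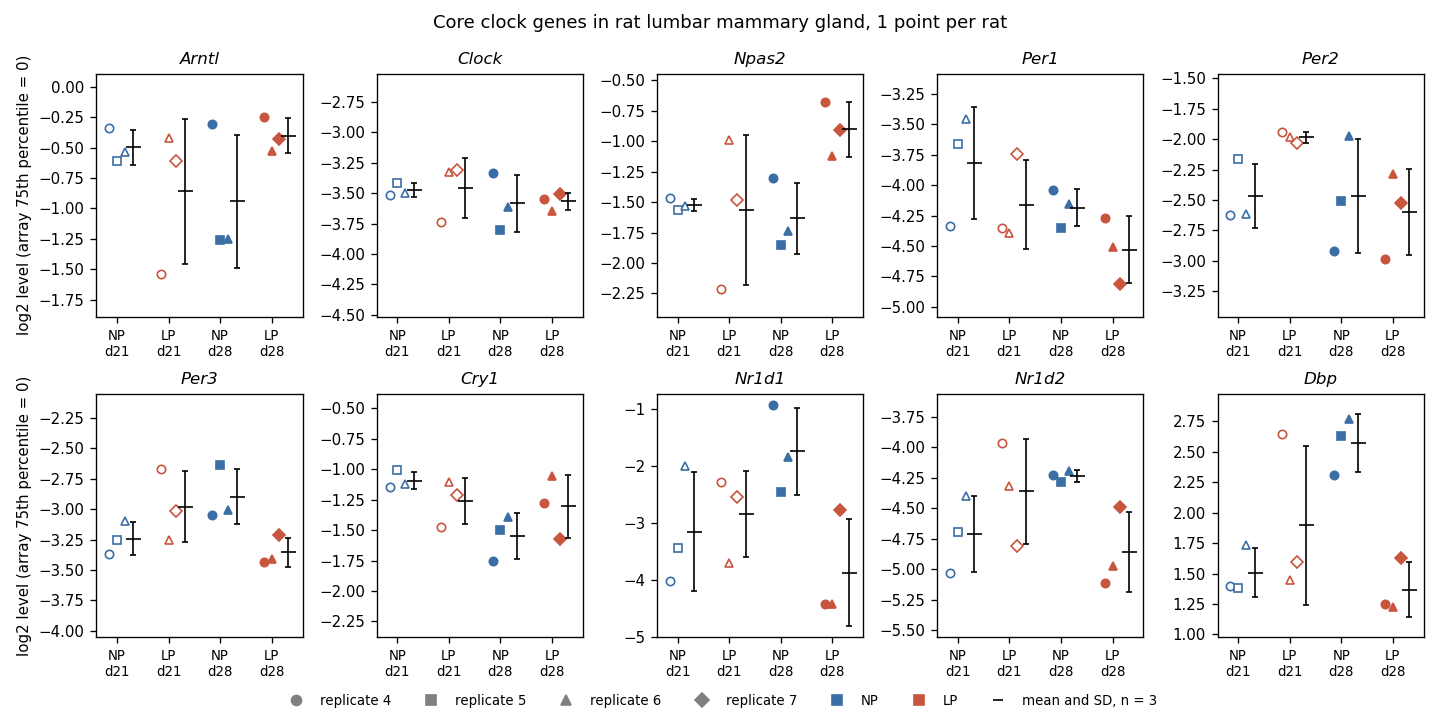
Log2 level of each clock gene (vertical axis, relative to the array's 75th percentile) in every rat, by group, with open symbols for day 21, filled symbols for day 28, blue for NP, red for LP and a symbol shape per replicate number. The black bar with whiskers is the mean with the SD of 3 rats, and at day 28 the LP points of Dbp lie between 1.22 and 1.63 and the NP points between 2.31 and 2.77, and LP replicate 4a of day 21 has the lowest Arntl (-1.54) and Npas2 (-2.21) of all rats.

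Dbp encodes a PAR bZIP factor that carries the rhythm to enzymes and transporters. At day 28 its level was 2.31, 2.63 and 2.77 in NP replicates 4f, 5f and 6f and 1.25, 1.22 and 1.63 in LP replicates 4f, 6f and 7f. Every LP rat was below every NP rat. The means were 2.57 ± 0.24 and 1.37 ± 0.23 (SD, n = 3). The difference was -1.20 (SE 0.29, limma unadjusted p = 0.00183, adjusted p = 0.581), and the other 2 Dbp probes gave -1.17 and -1.23. At day 21 the levels were 1.40, 1.38 and 1.74 in NP 4a, 5a and 6a and 2.64, 1.45 and 1.59 in LP 4a, 6a and 7c. Only LP 4a was high there, and it lay within the range of the NP rats of day 28. The difference of 0.39 at day 21 (SE 0.29, limma unadjusted p of 0.203, adjusted p = 0.862) was within that spread, and without LP 4a it was 0.01. The other 2 Dbp probes gave 0.28 and 0.44 at day 21 (limma unadjusted p of 0.372 and 0.145). The latter probe did not overlap, with its lowest LP rat at 0.02 and its highest NP rat at -0.01.

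Nr1d1 encodes REV-ERB alpha, which represses Arntl and Npas2, and its transcript varied most among the 10. Its range over the 12 rats was 3.49 on the log2 scale (11.3-fold), and its SD over the arrays was at the 96.9th percentile of the tested probes. At day 28 the levels were -0.93, -2.45 and -1.84 in NP 4f, 5f and 6f and -4.42, -4.42 and -2.78 in LP 4f, 6f and 7f. The groups did not overlap, and LP 7f was the LP rat nearest to the NP range. The difference was -2.13 (SE 0.65, limma unadjusted p of 0.00856, adjusted p = 0.581). At day 21 they were -4.02, -3.45 and -2.00 in NP and -2.28, -3.70 and -2.54 in LP, with full overlap and a difference of 0.32 (SE 0.65, limma unadjusted p of 0.639, adjusted p = 0.953). Duplicate spots of the probe on an array differed by at most 0.50.

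Nr1d2 encodes REV-ERB beta, a close paralog. Its levels at day 28 were -4.23, -4.29 and -4.20 in NP 4f, 5f and 6f, a spread of only 0.05 (SD, n = 3), and -5.12, -4.97 and -4.49 in LP 4f, 6f and 7f. All LP rats were lower, by -0.62 on average (SE 0.24, limma unadjusted p of 0.0269, adjusted p = 0.581). At day 21 the NP levels were -5.03, -4.70 and -4.40 and the LP levels -3.96, -4.31 and -4.81. The day 21 groups overlapped, with LP higher by 0.35 (SE 0.24, limma unadjusted p of 0.178, adjusted p = 0.862), or by 0.15 without LP 4a and 0.19 without NP 4a. Without LP 7c it was 0.57 (limma unadjusted p of 0.0329).

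Per3 encodes a period protein that is not needed for the rhythm itself but follows it closely. At day 28 the levels were -3.05, -2.63 and -3.01 in NP 4f, 5f and 6f and -3.43, -3.41 and -3.22 in LP 4f, 6f and 7f. No LP rat reached the NP range. The difference was -0.46 (SE 0.17, limma unadjusted p of 0.0213, adjusted p = 0.581), and the other 2 Per3 probes, also without overlap, gave -0.78 and -0.71. At day 21 the levels were -3.37, -3.25 and -3.10 in NP and -2.67, -3.25 and -3.01 in LP, a difference of 0.26 (SE 0.17, limma unadjusted p of 0.147, adjusted p = 0.862), or 0.11 without LP 4a.

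Per1 and Per2 encode the period proteins that form the inhibitory complex with the cryptochromes. Per1 was at -4.34, -3.66 and -3.46 in NP and -4.35, -4.39 and -3.74 in LP at day 21, and at -4.04, -4.35 and -4.16 in NP and -4.27, -4.51 and -4.81 in LP at day 28. Its LP mean was lower by a similar amount at both ages, -0.34 (95% interval -0.91 to 0.22) and -0.35 (-0.91 to 0.22), and the groups overlapped at both. Per2 was at -2.62, -2.16 and -2.62 in NP and at -1.94, -1.98 and -2.03 in LP at day 21. Among the brightest probes, Per2 was the 1 clock gene without overlap at day 21, with LP higher by 0.48 (SE 0.25, limma unadjusted p of 0.0796, adjusted p = 0.861), where 11.5% of all probes did not overlap, 5.54% with LP higher and 5.94% with LP lower. At day 28 Per2 was at -2.92, -2.51 and -1.98 in NP and at -2.98, -2.29 and -2.52 in LP, and the groups overlapped except for LP 4f, just below the NP range. Cry1, the cryptochrome of the set, was at -1.14, -1.01 and -1.12 in NP and -1.47, -1.10 and -1.21 in LP at day 21. At day 28 Cry1 was at -1.75, -1.50 and -1.39 in NP and -1.28, -1.06 and -1.58 in LP, and its differences of -0.17 and 0.24 were within the spread of the rats at both ages.

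Npas2, which pairs with the Arntl protein in place of Clock, was at -1.30, -1.85 and -1.74 in NP 4f, 5f and 6f and at -0.67, -1.12 and -0.91 in LP 4f, 6f and 7f at day 28. The LP rats were all above the NP rats, by 0.73 (SE 0.27, limma unadjusted p of 0.0231, adjusted p = 0.581). A second Npas2 probe gave 0.04 (SE 0.13, limma unadjusted p of 0.78). At day 21 Npas2 was at -1.47, -1.57 and -1.53 in NP and at -2.21, -0.99 and -1.48 in LP, where LP 4a was the lowest and LP 6a the highest of the 6, and the probes gave -0.04 and 0.10.

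Arntl, the activator without which the loop stops, was at -0.31, -1.26 and -1.26 in NP 4f, 5f and 6f and at -0.25, -0.53 and -0.43 in LP 4f, 6f and 7f at day 28. NP 4f lay among the LP rats and the other NP rats below all of them. The difference of 0.54 (SE 0.31, limma unadjusted p of 0.116, adjusted p = 0.582) did not pass, with a second probe at 0.58. Without NP 4f it was 0.86 (limma unadjusted p of 0.0146), and with slide row in the model 0.28. At day 21 Arntl was at -0.34, -0.61 and -0.54 in NP and at -1.54, -0.42 and -0.61 in LP, again with LP 4a alone at the low end. Clock, whose transcript cycles weakly in most tissues, was at -3.51, -3.41 and -3.50 in NP and -3.74, -3.33 and -3.31 in LP at day 21. At day 28 it was at -3.34, -3.80 and -3.62 in NP and at -3.55, -3.65 and -3.51 in LP. It had the smallest range of the 10 genes over the 12 rats (0.50), and its LP and NP means differed by 0.02 at both ages (95% intervals -0.31 to 0.34). A second Clock probe gave 0.30 at day 28 without overlap (SE 0.16, limma unadjusted p of 0.0879, adjusted p = 0.581).

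**Figure D2:**
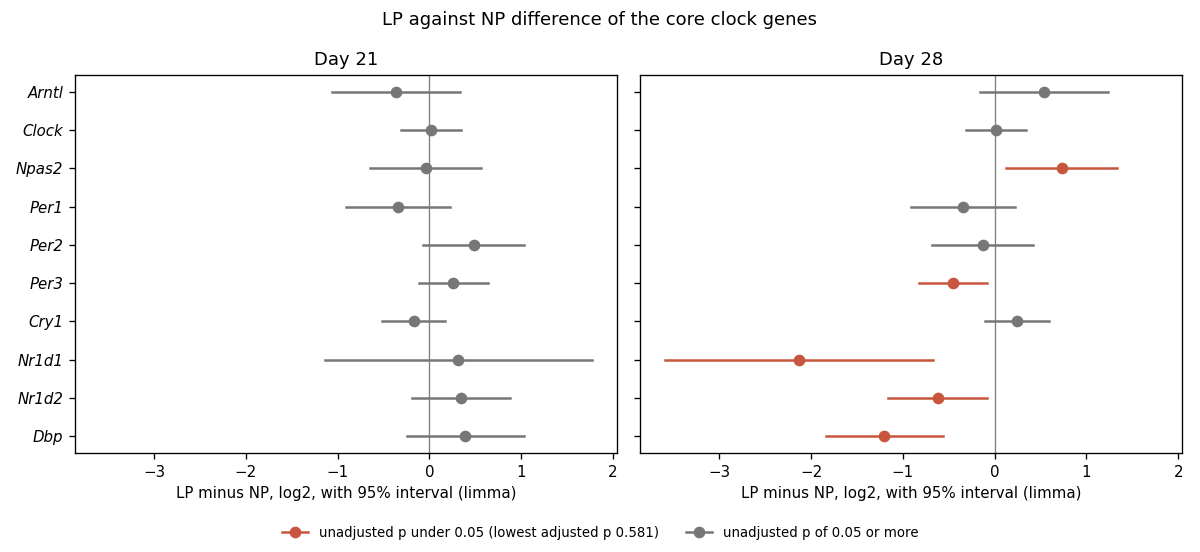
LP minus NP difference of each clock gene on the log2 scale with its 95% interval from limma, at day 21 (left) and day 28 (right); red marks an unadjusted p under 0.05. At day 21 every interval spans 0, and at day 28 those of Dbp, Nr1d1, Nr1d2 and Per3 lie below 0 and that of Npas2 above it, although the lowest adjusted p was 0.581.

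At day 21 none of the 10 clock genes had an unadjusted p under 0.05 in limma, where 4.36% of all probes did (2.1% higher and 2.26% lower in LP), and 0 passed after adjustment. Their LP minus NP differences ran from -0.36 (Arntl, -0.023 without LP 4a) to 0.48 (Per2), with a median of 0.14 against 0.01 over all tested probes. The LP minus NP difference changed between day 21 and day 28 at an unadjusted p under 0.05 for 4 of the 10 genes, all downward, where 2.26% of all probes did so, 1.83% downward and 0.431% upward. The change was -1.59 for Dbp (SE 0.40, limma unadjusted p of 0.00282), -2.45 for Nr1d1 (SE 0.92, unadjusted p of 0.0244), -0.97 for Nr1d2 (SE 0.34, unadjusted p of 0.0171) and -0.72 for Per3 (SE 0.24, unadjusted p of 0.0125). Their adjusted p was 1. The other Per3 probes gave changes of -1.18 and -1.27 (limma unadjusted p of 0.0212 and 0.0165). For Arntl and Npas2 the change was upward by 0.90 and 0.77 (limma unadjusted p of 0.0693 and 0.0734, both adjusted p = 1), or by 0.56 and 0.44 without LP 4a of day 21. A second Npas2 probe gave a change of -0.06 (limma unadjusted p of 0.767). The Nr1d1 change had an unadjusted p under 0.05 in 15 of 22 alternative settings.

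The Dbp and Nr1d1 differences at day 28 had an unadjusted p under 0.05 under each of the 23 alternative settings run, with values of -1.33 to -0.89 and -2.74 to -1.64. Those of Npas2, Per3 and Nr1d2 did so under 18, 17 and 16 of the 23, with values of 0.38 to 0.90, -0.65 to -0.29 and -0.81 to -0.26. The smallest Nr1d2 and Per3 differences came with normexp background and the smallest Npas2 difference with the mean of its probes. With slide row in the model, of these 5 only Dbp (-0.89, unadjusted p of 0.0221) and Nr1d1 (-2.13, unadjusted p of 0.0328) had an unadjusted p under 0.05, and likewise without LP replicate 4f only these (-1.14 and -1.86, unadjusted p of 0.00769 and 0.0337). The row term rests on the LP arrays of both ages alone. For Dbp, LP 4a of day 21 was at 2.64 against 1.45 and 1.59 in the second row. At day 28 LP 4f was at 1.25 against 1.22 and 1.63. Of the 6 luminal markers, Krt8, Krt18 and Epcam were higher in LP at day 28 without overlap, where 4.41% of all probes were, with means over the 6 genes of 1.25 to 1.56 against 0.10 to 1.30 in NP, although 0 of the 6 had an unadjusted p under 0.05 in limma. The median luminal difference was 0.58 at day 28 and 0.76 at day 21, and that of 4 basal markers 0.88 and 0.68, also with 0 at an unadjusted p under 0.05. The mean of the lymphocyte markers was -0.68 to 0.16 in LP against 0.27 to 0.66 in NP at that age. The mean muscle level ran from -3.66 to 3.11 in LP and from -1.59 to 0.03 in NP at that age. The part of these cells in the clock gene differences was not tested.

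Between the ages, within a diet, Dbp was higher by 1.06 at day 28 in NP (SE 0.29, limma unadjusted p of 0.00399, adjusted p = 0.177) and Cry1 lower by 0.46 (SE 0.15, limma unadjusted p of 0.0146, adjusted p = 0.271). These were 2 of the 10 genes, where 12.8% of all probes had an unadjusted p under 0.05, 7.9% higher and 4.9% lower at day 28. In LP, Npas2 was higher by 0.66 (limma unadjusted p of 0.0358), Per2 lower by 0.61 (unadjusted p of 0.0328) and Per3 lower by 0.38 (unadjusted p of 0.0488), 3 of 10 against 10.1% of all probes (4.46% higher and 5.65% lower), with adjusted p from 0.455. The other Per3 probes gave -0.98 and -1.28 in LP (limma unadjusted p of 0.00971 and 0.00219, adjusted p of 0.358 and 0.278). A second Npas2 probe gave 0.04 (limma unadjusted p of 0.773). The comparisons within NP and within LP both set one slide against another.

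The phase relation between the genes was read across rats, since every gland was sampled once. NP 5f, NP 6f and LP 4a had the lowest Arntl (-1.54 to -1.26) and the highest Dbp (2.63 to 2.77) of the 12. These 3 rats and NP 4f and NP 6a were above the 12-rat median in all of Per3, Nr1d1, Nr1d2 and Dbp. NP 4a, NP 5a, LP 4f and LP 6f were below it in all 4. NP 4f combined the highest Nr1d1 of all rats (-0.93) and a high Dbp (2.31) with an Arntl of -0.31 at the high end. The 3 NP rats of day 28 were alike in lying above the median in Per3, Nr1d1, Nr1d2 and Dbp, but differed in Arntl and Npas2. These 4 genes are the ones that were lower in LP at day 28 without overlap. The likeness of the NP rats in them therefore restates that difference and is no separate observation. All 3 LP rats of that age were above the median in Arntl and Npas2, LP 6f by only 0.0035 in Arntl.

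**Figure D3:**
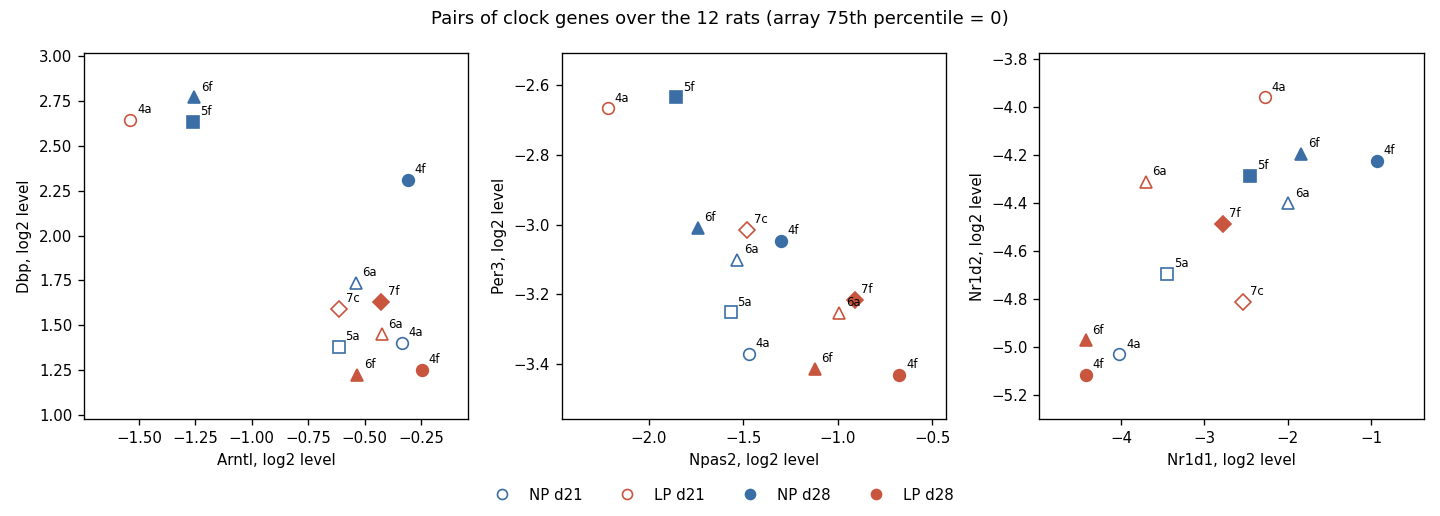
Level of one clock gene against another in each of the 12 rats (log2, relative to the array's 75th percentile), labelled by replicate; open symbols are day 21, filled day 28, blue NP, red LP. Arntl and Dbp fall into 3 rats with low Arntl and high Dbp, 8 with the reverse, and NP 4f high in both. Nr1d1 runs from -4.42 to -0.93 and Nr1d2 from -5.12 to -3.96.

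All 45 pairs of the 10 genes were correlated over the 12 rats with a permutation test (100000 permutations). Each gene was represented by its brightest probe, also Npas2, whose second probe was not correlated by itself. By Pearson r, 10 pairs had an adjusted p under 0.05 over the 45. Of these 6 were positive (Arntl with Npas2, and the pairs among Per3, Nr1d1, Nr1d2 and Dbp other than Per3 with Nr1d1), and 4 negative, each of Arntl and Npas2 with Per3 and Dbp. These 10 pairs kept their sign within day 21, within day 28 and in deviations from the group means. The list differed by rank. Arntl with Dbp (rho -0.552, adjusted permutation p = 0.164) and Npas2 with Dbp (rho -0.643, adjusted permutation p = 0.104) did not pass by rho. Per3 with Nr1d1 (rho 0.818, adjusted permutation p = 0.0148) and Arntl with Per2 (rho -0.741, adjusted permutation p = 0.0378) passed by rho only. Among the pairs without Arntl and Dbp, r was -0.80 for Npas2 and Per3 (rho -0.78, permutation p = 0.00169 and 0.00357, adjusted p = 0.0152 and 0.0201). Its value was -0.79 within day 21 and -0.87 within day 28, and -0.64 without the 2 rats farthest from the Npas2 median. For Nr1d1 and Nr1d2 it was 0.76 (rho 0.81, permutation p = 0.005 and 0.00229, adjusted p = 0.025 and 0.0172), with 0.52 and 0.94 within the days and 0.61 without the 2 farthest rats. For Per3 and Nr1d2 it was 0.77 (rho 0.80, permutation p = 0.00304 and 0.00272, adjusted p = 0.0228 and 0.0175), with 0.72 and 0.81 within the days and 0.74 without the 2 farthest rats. Arntl with Nr1d1 did not pass (r = -0.384, adjusted permutation p = 0.373), and its r was -0.036 in deviations from the group means. Npas2 with Nr1d1 (r = -0.504, adjusted permutation p = 0.212) and Arntl with Nr1d2 (r = -0.647, adjusted permutation p = 0.0685) did not pass either.

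Arntl and Dbp each fell into separate sets of values, Arntl into 3 rats at -1.54 to -1.26 and 9 at -0.61 to -0.25, and Dbp into 8 rats at 1.22 to 1.74 and 4 at 2.31 to 2.77. Their relations were therefore computed within the larger set, 18 relations in all, a choice made after the values were seen. The sets were drawn on the values of Arntl or Dbp themselves, which narrows the range of that gene, so the correlations are given as a description with no p. Among the 8 rats with the lower Dbp, r was 0.965 with Nr1d1 (rho 0.905) and 0.86 with Per3 (rho 0.833). It was 0.697 with Nr1d2, -0.353 with Arntl and -0.382 with Npas2, and the remaining genes ran from -0.355 (Cry1) to 0.417 (Clock). Among the 9 rats with the higher Arntl, r was 0.595 with Npas2 (rho 0.717), 0.168 with Dbp (rho 0.017) and -0.361 with Per3 (rho -0.417). It was -0.76 with Per2 (rho -0.683) and -0.523 with Cry1, and the remaining genes ran from -0.487 (Per1) to -0.077 (Nr1d2). Over the 12 rats without the 2 farthest from the Arntl median, r of Arntl with Dbp was -0.65 and with Per3 -0.535. Without LP 4a of day 21, 1 of the 45 pairs had an adjusted p under 0.05, without LP 4f of day 28 there were 4 and without LP 6f there were 6. In deviations from the group means, permuted within groups, Arntl and Npas2 was the 1 pair that passed (r = 0.92, rho 0.965, exact permutation p = 0.000772 for both, adjusted p = 0.0347), and 6 pairs had an unadjusted p under 0.05. That pair rests on the brightest Npas2 probe. The second Npas2 probe ordered the rats of a group as Arntl did in LP, and in reverse in NP, at each age. Within day 21 and within day 28, with 720 orders of 6 rats each, 6 and 9 pairs had an unadjusted p under 0.05 and 0 an adjusted one.

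The other clock genes were taken as a list of 27: the paralogs Arntl2, Cry2, Bhlhe40, Bhlhe41 and Ciart, the ROR receptors, the bZIP factors Tef, Hlf and Nfil3, the kinases and ubiquitin ligases that time PER and CRY turnover, the clock-associated Timeless, Tipin and Nono, and output genes such as Wee1 and Nampt. Of these 24 were on the array by these symbols and 22 were tested. At day 28, 3 of the 22 had an unadjusted p under 0.05 in limma, 2 lower and 1 higher in LP, where 8.07% of all probes did so (6.09% lower, 1.98% higher), with a median difference of 0.01, and 0 passed after adjustment. At day 21 none did, where 4.36% of all probes did. The LP and NP values did not overlap for 4 of them at day 28 (these 3 and Bhlhe41), where 16.8% of all probes did not overlap, and for Tipin alone at day 21, where 11.5% did not.

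Tef, a PAR bZIP factor like Dbp, was at 0.63, 0.61 and 0.73 in NP 4f, 5f and 6f and at -0.65, -0.09 and 0.09 in LP 4f, 6f and 7f. Its difference was -0.87 (SE 0.23, limma unadjusted p of 0.00372, adjusted p = 0.581), without overlap and in the direction of Dbp. Nfil3, which encodes a repressor that competes with the PAR bZIP factors for D-boxes, was at -2.55, -3.13 and -2.79 in NP and at -2.13, -1.95 and -2.22 in LP. It was higher in LP by 0.73 (SE 0.23, limma unadjusted p of 0.0107, adjusted p = 0.581), opposite to Dbp and Tef. Cry2, the second cryptochrome, was at -3.71, -3.62 and -3.62 in NP and at -4.04, -4.21 and -3.94 in LP. Its difference was -0.41 (SE 0.10, limma unadjusted p of 0.00256, adjusted p = 0.581), whereas Cry1 had its LP mean on the other side. At day 21 the differences were 0.33 for Tef, -0.40 for Nfil3 and -0.08 for Cry2 (limma unadjusted p of 0.182, 0.114 and 0.462).

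**Figure D4:**
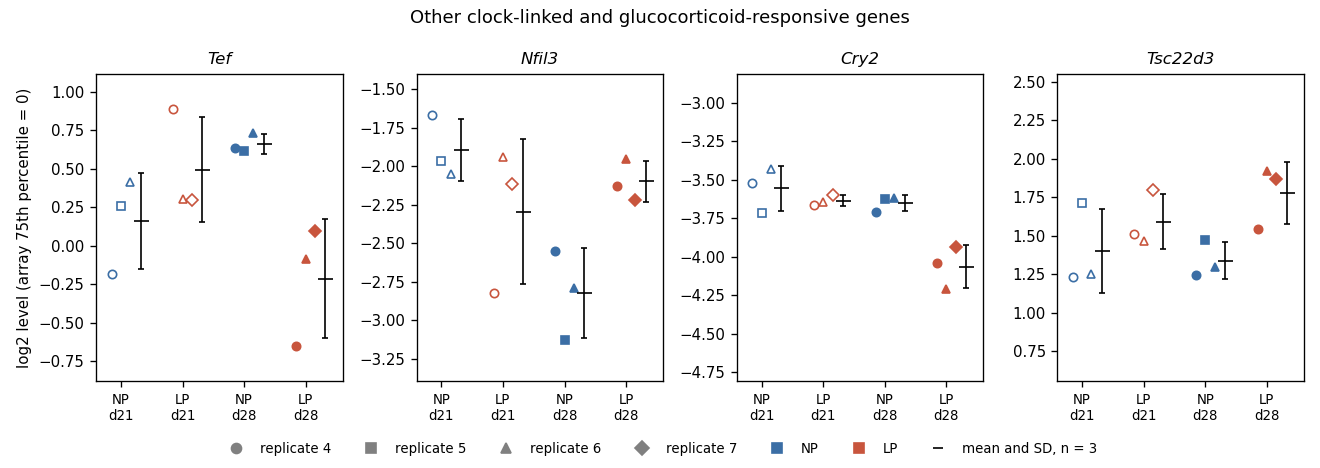
Log2 level of Tef, Nfil3, Cry2 and the glucocorticoid-responsive gene Tsc22d3 in every rat by group (vertical axis relative to the array's 75th percentile); symbols as in the plot of the 10 clock genes, black bars are mean and SD of 3 rats. At day 28 the LP points lie below the NP points for Tef and Cry2 and above them for Nfil3 and Tsc22d3.

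Glucocorticoids reset peripheral clocks and act on Per1 directly, so 6 of their target genes were set beside the clock. Of Fkbp5, Tsc22d3, Sgk1, Zbtb16, Klf9 and Dusp1, only Tsc22d3, an anti-inflammatory leucine zipper gene, had an unadjusted p under 0.05 at day 28, where 8.07% of all probes did and 1.98% with LP higher. It was at 1.24, 1.47 and 1.30 in NP and at 1.54, 1.92 and 1.87 in LP, higher by 0.44 (SE 0.16, limma unadjusted p of 0.0226, adjusted p = 0.581). The median difference of the 6 was 0.49 at day 28 and 0.05 at day 21, where none had an unadjusted p under 0.05. The mean level of the 6 genes was highest in LP 7f and LP 7c (-0.08 and -0.25) and lowest in NP 4a and LP 4a (-1.18 and -1.05), and its part in the clock gene levels was not tested.

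Among 11547 other genes with a symbol that were well above background on all arrays, those most like Nr1d1 over the 12 rats were Bnc2 (Pearson r 0.825), Tef (0.814), Gtpbp4 (0.813), Tspyl2 (0.808) and Hsf1 (0.806). Counting Nr1d1 itself as first, Dbp and Nr1d2 had ranks 19 and 21, at 0.768 and 0.764. Most like Arntl outside the set were Nfil3 (0.79), Klhl35 (0.76), Fcgr2a (0.76), Hmgcll1 (0.76) and Gnat2 (0.75), and Npas2, by its brightest probe, had the highest r of all (0.84). The lowest r to Arntl among the 11547 genes was that of Per3 (-0.83), followed by Dbp (-0.805). Nr1d2 had rank 47 from the lowest (-0.647) and Nr1d1 rank 854 (-0.384). These values are over 12 rats and describe likeness only.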

How the data were processed

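Total RNA was amplified into Cy3-labelled cRNA by a commercial service for the authors and hybridised to 1-colour Agilent rat arrays, 1 rat per array. Per the file headers, Feature Extraction 10.7.3.1 made the deposited intensity by subtracting background and correcting trends within the array, and the probes were placed on rn4. The authors also deposited a table that holds the ratio of each signal to the median gene spot of its array (largest deviation 6.56e-05), used as an alternative. Here 4259 control spots and the outlier spots (259 to 766 an array) were dropped, the log2 intensity had its array's 75th percentile subtracted, and spots of a probe were averaged. The number of arrays limits the precision.

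Of 30367 probes, the 23209 that Feature Extraction called well above background in 3 or more of the 12 rats were fitted in 1 limma 3.58.1 model of the 4 groups (lmFit, eBayes, R 4.3.3, prior degrees of freedom 1.95), with Benjamini-Hochberg adjustment over all of them. Each gene was represented by its brightest probe. Correlations used permutation tests in numpy. The code was tested on simulated data. Alternatives were quantile normalization, normexp background (offset 50), other filters, only the arrays of a day or diet, an intensity trend with robust eBayes, replicate number or slide row in the model, a random block (correlation 0.0266), the deposited table, the mean of a gene's probes, and leaving out each array. The study used Rosetta Resolver to call genes, for which limma stands in here. The text names all 10 genes, list genes with an unadjusted p under 0.05 at either age, and the 5 genes most like Nr1d1 and Arntl. The members and lists were chosen with earlier results of these data known. Promoter sequences are those of RefSeq (GRCr8). The results of some listed genes are not reported here.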

Additional observations from a re-analysis of the deposited data

Results flagged for a closer look

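For 4 of the 10 core clock genes and 3 of the 22 others tested, the LP minus NP difference changed from day 21 to day 28 at an unadjusted p under 0.05 in limma, by the test of that change itself. Of all probes 2.26% did so, 1.83% downward and 0.431% upward. The changes were -1.59 for Dbp, -2.45 for Nr1d1, -0.97 for Nr1d2, -0.72 for Per3, -1.21 for Tef, 1.13 for Nfil3 and -0.33 for Cry2, each with an adjusted p of 1 over all probes. The groups of 3 rats were too small for a test of single outlying rats.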

How the results depend on the processing

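Results were recomputed under 11 alternative settings and without each of the 12 arrays in turn. Of the values of single genes, 650 kept their direction and 30 turned sign. None had an adjusted p under 0.05 in any setting (limma, lowest 0.316), so these counts describe direction only. The day 28 count of 5 clock genes with an unadjusted p under 0.05 became 3 with normexp background, 2 with the row on the slide as a covariate, 2 with the replicate number as a block, and 2 to 6 without 1 array. At day 21 the count of 0 became 1 with only the arrays of that day and 0 to 1 without 1 array, and the count without overlap was 1 to 3 there and 5 to 6 at day 28. The count of 4 changes between the ages was 3 to 6 without 1 array. Between the ages, the LP count of 3 became 1 with normexp background, 1 with only the LP arrays, 1 with the replicate block and 0 to 3 without 1 array (0 without LP 4a of day 21 or LP 4f of day 28), and the NP count of 2 was 2 to 4. The 10 correlated pairs became 5 with normexp background and 1 to 12 without 1 array. No count with an adjusted p moved from 0. The fit to the arrays of 1 day could not give the change between days. Samples with the same number within a day (2 shared numbers per day) had correlations of deviations of 0.09 and 0.13 at day 21 and 0.10 and 0.09 at day 28. No values of samples with unlike numbers are given as a reference, so these correlations cannot decide whether samples were paired. Samples with the same number but unlike diet and day had correlations of 0.04 to 0.22. Rats of the same diet and number on the 2 days had 0.38 and 0.21 for LP 4 and 6, 0.17 and 0.14 for NP 5 and 6, 0.03 for NP 4 and -0.06 for LP 7, and diet with number as a random block moved no count by more than 1.5 times. The replicate block changed no other count by more than 1.5 times.

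These differences turned sign, and the cause was not tested. The Clock difference became -0.074 at day 21 and -0.075 at day 28 with the replicate block, -0.11 at both with the slide row, and -0.058 to 0.157 and -0.093 to 0.141 without 1 array. Nr1d1 at day 21 became -0.29 with the block and -0.117 to 0.895 without 1 array, Npas2 at day 21 became 0.028 with the mean of its probes and -0.32 to 0.29, and Per2 at day 28 was -0.355 to 0.115. The change between days of Clock became 0.038 with quantile normalization, 0.036 with normexp and 0.090 with the mean of probes, and -0.14 to 0.12 without 1 array, and that of Per1 0.028 with quantile normalization and -0.18 to 0.26.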
